A study of Mus musculus with 18 samples.

Results

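DNA damage signaling and repair genes were followed in the RNA of regulatory T cells (Tregs) with and without CHD8, an ATP-dependent chromatin remodeler. The group held 42 genes, chosen for their roles with earlier results of these data known. All 42 were among the 35865 genes that the RNA-seq table lists under a single name. Of those, 15240 genes had a TPM (the transcripts of a gene as a share of all, scaled to a fixed total) of at least 1 in at least 2 libraries and were tested, and all 42 members were among them. Fanca passed that filter only through its Chd8-/- libraries, so that a difference in its level was bound to appear.

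The question was whether loss of CHD8 goes with altered RNA levels of these genes. YFP+ Tregs had been sorted from splenic CD4+ T cells, with 2 RNA-seq libraries for Chd8-/- and 2 for WT. The Chd8-/- libraries carry the genotype label CHD8Flox/FloxFoxp3YFP-Cre and the WT libraries CHD8flox/floxFoxp3YFP-Cre/+, whereas the study's methods describe WT controls without floxed Chd8 alleles. The study describes YFP+ Tregs of females with the label genotype of the WT libraries as CHD8-deficient. If that label holds, the sorted YFP+ cells called WT would also have lost Chd8. The name WT is kept here as in the study, and the genotype of these libraries was not tested. All 4 libraries carry the treatment label Poly IC injection, which the methods do not mention. Age stands in no label, and the methods describe littermates a few weeks after birth. A YFP/iCre fusion knocked into the X-linked Foxp3 locus deletes Chd8 in Foxp3-expressing cells, so that cells of other types in a library would keep the gene. Nothing in the labels says whether animals were pooled.

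As background, cells answer DNA breaks with the kinases ATM, ATR and DNA-PK, which start signaling that halts the cell cycle and recruits repair proteins. Breaks through both strands are mended by homologous recombination, which copies an intact sister, or by non-homologous end joining, which ligates the ends directly and also joins antigen receptor gene segments in developing lymphocytes. Damage to one strand is handled by base excision, nucleotide excision and mismatch repair, and crosslinks between strands by the Fanconi anemia pathway. Dividing lymphocytes carry many of these proteins at higher levels than resting ones.

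Chd8 itself, the deleted gene, had TPM of 14.9 and 11.4 in the Chd8-/- libraries and 24.7 and 27.6 in the WT libraries. Its genotypes did not overlap, and the log2 fold change was -0.95 (SE 0.29, adjusted p = 0.455, limma). Chd8-/- replicate 2 stood apart from the other 3 libraries. Its Pearson correlation with them across the log2(TPM + 1) of genes was 0.840 to 0.860, against 0.897 to 0.919 among the others. The summed TPM of 5 myeloid markers was 1456.1 in it, led by Lyz2 at 1360.3 TPM, against 33.2 in Chd8-/- replicate 1 and 134.3 and 116.5 in WT. That of 3 erythroid markers was 1140.0 in Chd8-/- replicate 2, against 8.5 in Chd8-/- replicate 1 and 196.7 and 216.0 in WT. Both sums in Chd8-/- replicate 1 thus lay below both WT libraries. The 4 B cell markers summed to 136.3 in Chd8-/- replicate 2 and to 27.2 to 43.4 elsewhere. For the 4 CD8 and NK cell markers the sum was 37.5 in it and 11.3 to 40.0 in the others, with Ncr1 at 0 in 3 libraries. The 6 Treg markers summed to 3052.8 to 3623.8 in all 4 libraries, with Foxp3 between 202.8 and 232.1 TPM. Transcripts of 10 cell-cycle genes summed to 935.5 and 1017.0 in the Chd8-/- libraries and to 732.7 and 774.9 in the WT libraries. Pcna was the largest part of each sum, with 570.8 and 523.6 TPM in Chd8-/- and 420.7 and 397.3 in WT. The separation of the sums rested on that gene. Of the 10 genes, 8 were higher on average in Chd8-/- Tregs and 5 without overlap. Over all genes tested, 14.8% lay higher without overlap and 61.5% had a negative log2 fold change. The part that other cells, cycling or Chd8-/- replicate 2 play in the members' values was not tested. The Y-linked genes Ddx3y, Eif2s3y, Kdm5d and Uty were listed at 0 in all 4 libraries, although the study describes a male and a female per genotype. Xist, the X inactivation gene that female cells express, had 701.5 and 500.2 TPM in Chd8-/- and 843.3 and 816.8 in WT. In such bulk samples fewer cells of a type and less RNA per cell cannot be told apart.

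**Figure D1:**
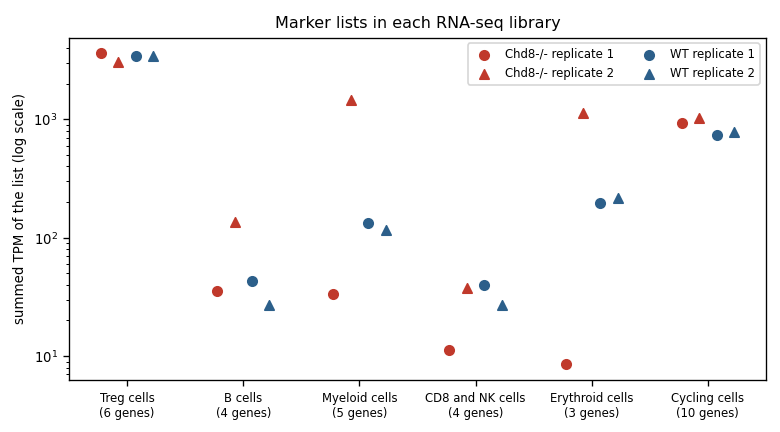
Summed TPM (log scale) of the marker lists in each library, Chd8-/- in red and WT in blue, replicate 1 as circles and replicate 2 as triangles. The myeloid and erythroid sums of Chd8-/- replicate 2, 1456.1 and 1140.0, lay far above those of the other libraries, and those of Chd8-/- replicate 1 lay below both WT libraries. The cycling sums were higher in both Chd8-/- libraries, with Pcna as the largest part of each sum.

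Promoters are shown for the genes on which the results below turn most, Xrcc4 and its partner Lig4, whose log2 fold changes had opposite signs, and Xrcc3, the member with the lowest fold change. No gene of the 3 passed an adjusted p of 0.05, and the fold change of Lig4 rested on Chd8-/- replicate 2. The stretches are the 250 bases before the RefSeq start site (GRCm38.p6, minus strand for each, given 5′ to 3′), at chr13:90089609-90089858 for Xrcc4, chr8:9977681-9977930 for Lig4 and chr12:111813880-111814129 for Xrcc3. Capitals mark matches on either strand to motifs of general and cell-cycle promoter factors. The GC box, which SP1 family factors bind, was searched as GGGCGG, and the CCAAT box of the factor NF-Y by the letters of its name. For ETS family factors the motif was CCGGAAG. The core of the NRF1 site was GCATGCGC. The E2F motif was searched as TTTCCCGC, with the variants TTTGCCGC, TTTCGCGC and TTTGGCGC counted as well.
Xrcc4: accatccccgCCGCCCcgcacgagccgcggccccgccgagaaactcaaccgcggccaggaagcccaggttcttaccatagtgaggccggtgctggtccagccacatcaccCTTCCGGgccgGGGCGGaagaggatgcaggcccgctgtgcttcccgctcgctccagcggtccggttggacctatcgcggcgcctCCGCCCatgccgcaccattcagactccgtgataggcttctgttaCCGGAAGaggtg
Lig4: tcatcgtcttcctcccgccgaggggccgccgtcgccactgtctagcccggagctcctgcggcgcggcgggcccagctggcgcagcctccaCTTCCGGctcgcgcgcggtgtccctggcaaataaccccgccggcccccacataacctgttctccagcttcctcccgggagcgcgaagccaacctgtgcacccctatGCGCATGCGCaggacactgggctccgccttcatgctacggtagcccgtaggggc
Xrcc3: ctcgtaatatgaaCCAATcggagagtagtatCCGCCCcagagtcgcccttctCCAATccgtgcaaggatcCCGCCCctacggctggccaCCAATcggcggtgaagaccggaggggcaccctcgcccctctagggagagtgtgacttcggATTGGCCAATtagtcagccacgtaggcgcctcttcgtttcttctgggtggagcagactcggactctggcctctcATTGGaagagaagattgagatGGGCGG
The Xrcc4 stretch held 3 GC boxes and 2 ETS motifs. In the Lig4 stretch there were 1 ETS motif and 2 NRF1 cores that overlap on opposite strands. Lig4 has a second RefSeq start site within the gene, whose 250 bases (chr8:9976312-9976561, not printed) held 2 GC boxes, 1 ETS motif and no NRF1 core. The Xrcc3 stretch had 9 matches, 6 CCAAT boxes and 3 GC boxes, with a pair of CCAAT boxes adjoining on opposite strands. None of the 3 held an E2F motif in these letters.

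RefSeq start windows, each from 250 bases before to 50 bases after a start, were given for 35 of the 42 members, 38 windows in all. The E2F motif lay in 7 of the 38, or 18.4%, against 2.26% of all 32851 windows and 3.69% of the 12928 windows of genes tested. The 7 were those of Bard1, Brca2, Chek2, Mdc1, Msh6, Topbp1 and Xrcc6. The GC box was present in 73.7% of the members' windows, 35.7% of all windows and 56.5% of windows of genes tested. For the CCAAT box the shares were 57.9%, 37.4% and 37.9%, for the ETS motif 28.9%, 8.86% and 16.9%, and for the NRF1 core 15.8%, 2.71% and 4.90%. The median G and C content was 58.7% in the members' windows, 52.7% over all windows and 59.3% over the windows of genes tested. These are matches of letters and not shown binding sites.

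Members were found on both sides of 0. By limma on log2(TPM + 1), 23 of the 42 had a positive log2 fold change (Chd8-/- minus WT) and 19 a negative one, with a median of 0.05. Over all 15240 genes tested the median was -0.15, and 28 members lay above it. No member passed an adjusted p of 0.05 (Benjamini-Hochberg over all genes tested), as no gene did (0%), and the smallest adjusted p among the members was 0.402. At an unadjusted p under 0.05, 2 members stood out, Xrcc4 with higher and Xrcc3 with lower levels in Chd8-/- Tregs, which is 4.76% of the members against 10.2% of all genes tested. With 2 libraries against 2, an exact permutation test of 1 gene cannot go below p = 0.333.

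The genotypes did not overlap and Chd8-/- was the higher in 8 members, a share of 19.05% against 14.8% of all genes tested. These were Chek1, Mre11a, Rad50, Xrcc4, Xrcc6, Fanca, Ercc1 and Ercc2. Fanca counts among the 8 although its separation was bound to appear, since it passed the filter only through its Chd8-/- libraries. They did not overlap and Chd8-/- was the lower in another 8, again 19.05%, against 27.8% of all genes tested. These were Prkdc, Xrcc2, Xrcc3, Lig4, Xrcc1, Lig3, Fanci and Ercc4. The genotypes overlapped in the other 26 members. A log2 fold change of 1 or more was seen for 2 members in the higher direction, Xrcc4 and Ercc1, with 5.12% of all genes tested reaching that size. In the lower direction 2 members reached it, Xrcc3 and Nbn, with 11.6% of all genes tested. A change of at least 0.5 in either direction was given by 13 of the 42 members, against 41.3% of all genes tested. The counts without overlap depended on how the libraries were scaled. After quantile normalization, which moved the median of all genes from -0.15 to -0.02, 16 members lay higher and 5 lower without overlap, against 20.6% and 21.8% of all genes tested. The 8 genes with higher levels as deposited were among those 16, and Prkdc, Xrcc2, Xrcc3, Fanci and Ercc4 were the 5 lower ones.

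**Figure D2:**
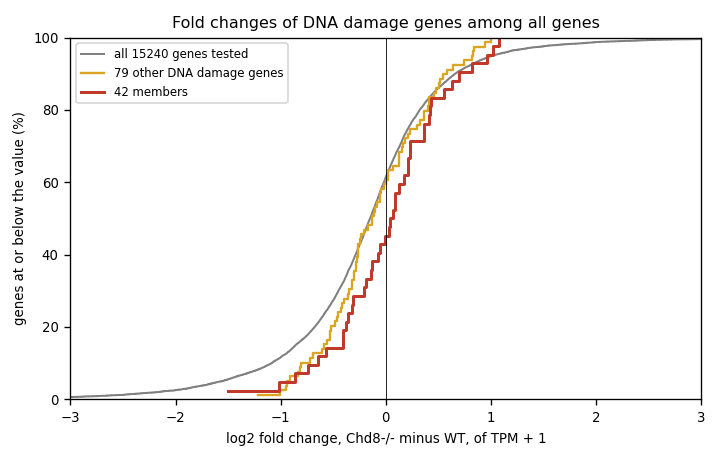
Cumulative share (%) of genes at or below each log2 fold change (Chd8-/- minus WT, TPM + 1), for the 42 members (red), 79 other DNA damage genes (orange) and all 15240 genes tested (gray). The member curve lies to the right of the others over most of its range, with a median of 0.05 against -0.13 and -0.15.

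The members were expressed over a wide range. The mean TPM over the 4 libraries ran from 1.0 for Fanca to 135.7 for Rad50, with a median of 10.1 against 13.4 over all genes tested. Summed over the 42 members, TPM was 1029.5 and 1014.1 in the Chd8-/- libraries and 944.0 and 1071.9 in the WT libraries, so that the total overlapped between genotypes. The median SD of log2(TPM + 1) between the 2 libraries of a genotype was 0.26 in Chd8-/- and 0.16 in WT, against 0.37 and 0.23 over all genes tested. The lowest value of the 4 libraries was in Chd8-/- replicate 1 for 6 members, in Chd8-/- replicate 2 for 13, in WT replicate 1 for 14 and in WT replicate 2 for 9. The highest was in them for 13, 11, 7 and 11 members, in the same order. The sign of the fold change survived the removal of any single library for 23 members and turned at least once for 19.

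In RefSeq (GRCm38.p6) all 42 members had a position, H2afx under its newer symbol H2ax. The genes named most below lie at chr9:36708482-36726658 (Chek1, minus strand, 14 exons), chr12:111803192-111813893 (Xrcc3, minus strand, 8 exons), chr13:89848914-90089608 (Xrcc4, minus strand, 10 exons), chr8:9970020-9977680 (Lig4, minus strand, 3 exons), chr7:19344067-19356524 (Ercc1, plus strand, 10 exons) and chr16:13109366-13152009 (Ercc4, plus strand, 11 exons). The exonic length of the members ran from 1189 bases for Xpa to 14000 bases for Prkdc. Some exonic bases are shared with another annotated gene in 17 members, and at least 5% of them in 9. Besides those given with their values below, these were Fanca (22.1%, with Zfp276), Rad54l (21.4%, with Lrrc41), Trp53bp1 (20.0%, with Tubgcp4), Ogg1 (17.4%, with Camk1) and Lig3 (7.0%, with Rffl), each on the opposite strand, and their levels are uncertain to that extent.

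**Figure D3:**
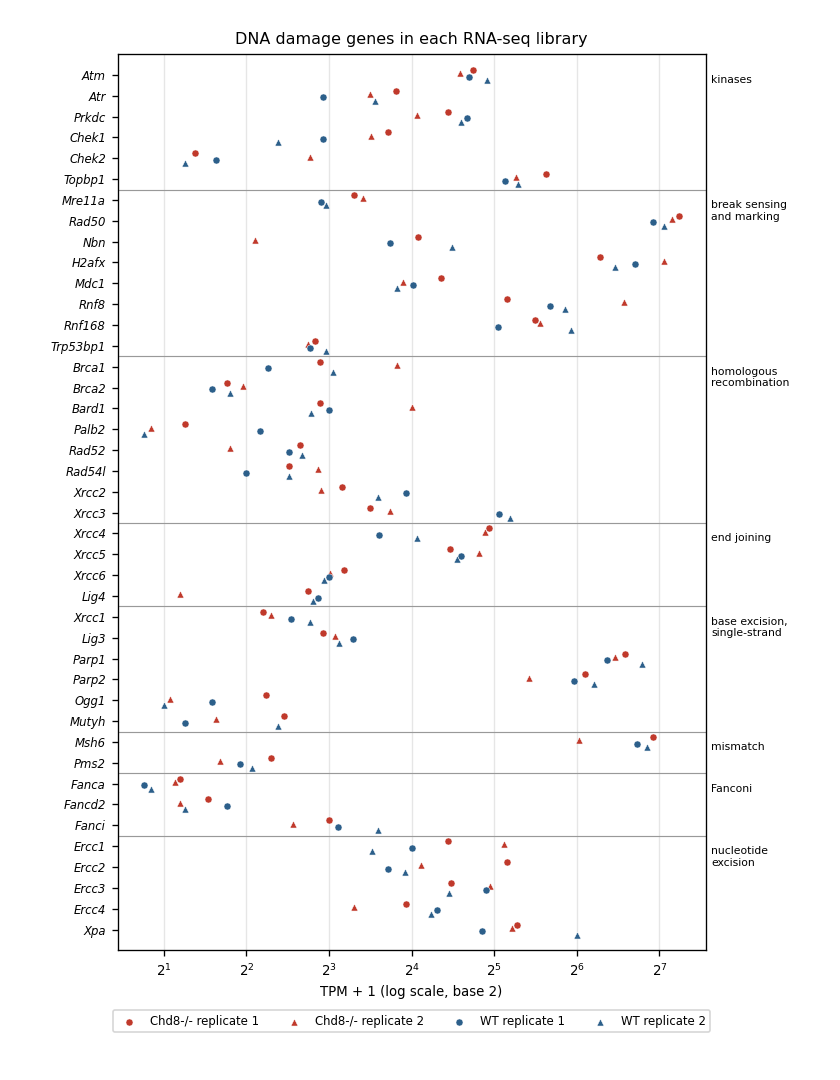
TPM + 1 of each member in each library on a log axis of base 2, with Chd8-/- in red, WT in blue, replicate 1 as circles and replicate 2 as triangles, ordered by role. Xrcc3, Xrcc4 and Chek1 show the genotypes apart, and Nbn, Lig4 and Msh6 show Chd8-/- replicate 2 far below the other 3 libraries.

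Among the damage kinases and their activators, Chek1 differed most. It encodes CHK1, the kinase that ATR switches on to stall the cell cycle. Chek1 had TPM of 12.1 and 10.4 in Chd8-/- and 6.6 and 4.2 in WT libraries, so the genotypes did not overlap. Its log2 fold change was 0.96 (SE 0.38, adjusted p = 0.507), and 1.06 without Chd8-/- replicate 2. Of the 10 cell-cycle genes given above, 8 had positive log2 fold changes and 2 negative ones, Ccnb1 and Mcm5. Whether cycling plays a part in the Chek1 level was not tested. Chek2, which encodes the ATM-activated checkpoint kinase, had 1.6 and 5.8 TPM in Chd8-/- and 2.1 and 1.4 in WT. That higher mean came from 1 library, and the log2 fold change went from 0.62 (SE 0.62, adjusted p = 0.762) to -0.07 without it.

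The genes of the apical kinases themselves had log2 fold changes within 0.5 of 0. Atm, whose product responds to breaks through both strands, had 25.8 and 23.1 TPM in Chd8-/- and 24.9 and 29.0 in WT. The log2 fold change was -0.13 with a 95% interval of -0.82 to 0.55 (adjusted p = 0.876). Atr, the kinase of stalled replication forks, had 13.0 and 10.3 TPM in Chd8-/- and 6.6 and 10.8 in WT. WT replicate 1 alone was low there, and the log2 fold change of 0.41 (SE 0.39, adjusted p = 0.748) became 0.09 without it. Prkdc, the catalytic subunit of DNA-PK, had 20.7 and 15.8 TPM in Chd8-/- and 24.5 and 23.3 in WT. Both Chd8-/- libraries were lower, by a log2 fold change of -0.38 (SE 0.28, adjusted p = 0.682). Topbp1, the activator of ATR, ranged from 34.1 to 48.3 TPM, with overlap.

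Among the genes for end sensing and chromatin marking, the MRN complex showed no common direction. MRN holds the nuclease MRE11, the ATPase RAD50 and the adaptor NBS1, encoded by Nbn, and binds broken ends. Rad50 was the most abundant member, with 149.6 and 141.3 TPM in Chd8-/- and 120.3 and 131.7 in WT. Its Chd8-/- libraries were both higher, at a log2 fold change of 0.21 (SE 0.18, adjusted p = 0.721). Mre11a had 8.9 and 9.6 TPM in Chd8-/- and 6.5 and 6.8 in WT, again without overlap, with a log2 fold change of 0.42 (SE 0.33, adjusted p = 0.695) that stayed between 0.37 and 0.47 when any library was left out. Nbn had 15.9 and 3.3 TPM in Chd8-/- and 12.3 and 21.4 in WT. The genotypes overlapped, and its log2 fold change of -1.02 (SE 0.78, adjusted p = 0.690) was -0.03 without Chd8-/- replicate 2.

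The chromatin marking genes overlapped between genotypes without exception. H2afx, which encodes the histone variant phosphorylated around breaks, had 76.8 and 131.9 TPM in Chd8-/- and 103.1 and 87.0 in WT. The 2 Chd8-/- libraries were the lowest and the highest of the 4, and the log2 fold change was 0.09 (SE 0.33, adjusted p = 0.947). Trp53bp1, which encodes 53BP1, a protein that shields ends from resection, had 6.1 and 5.7 TPM in Chd8-/- and 5.8 and 6.8 in WT. The log2 fold change was -0.08 with a 95% interval of -1.02 to 0.86 (adjusted p = 0.955). The ubiquitin ligase gene Rnf8 ran from 34.5 TPM in Chd8-/- replicate 1 to 93.7 in Chd8-/- replicate 2, with the WT libraries at 50.2 and 56.9. Its annotation shares 78.4% of exonic bases with a gene on the same strand, Gm28043, which makes its level uncertain. Rnf168, the ligase acting after RNF8, ranged from 32.1 to 60.1 TPM, and Mdc1, the scaffold that binds the marked histone, from 13.1 to 19.4.

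Homologous recombination held the member with the lowest fold change and genes higher in a single library. Xrcc3, which acts in homologous recombination, had 10.3 and 12.4 TPM in Chd8-/- and 32.3 and 35.4 in WT. Both Chd8-/- libraries were well below both WT libraries. The log2 fold change was -1.50 (SE 0.27, interval -2.23 to -0.77). Its limma p was 0.00412 unadjusted and 0.402 adjusted over all genes. The fold change stayed between -1.62 and -1.38 with any library left out. However, 55.5% of the exonic bases of Xrcc3 are shared with Klc1, a kinesin light chain gene on the opposite strand, and whether reads were counted by strand is not given in the sources used here. Klc1 was also lower in both Chd8-/- libraries, with 7.6 and 7.3 TPM against 11.9 and 13.5 in WT. Unless reads were counted by strand, those of the 2 genes cannot be told apart in the shared bases. Xrcc2, another gene of that pathway, which shares no exonic bases with other genes, had 7.9 and 6.5 TPM in Chd8-/- and 14.3 and 11.1 in WT. Its Chd8-/- libraries were both lower, with a log2 fold change of -0.74 (SE 0.34, adjusted p = 0.555) and of -0.61 without Chd8-/- replicate 2.

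The BRCA genes were highest in Chd8-/- replicate 2. Brca1, a ubiquitin ligase subunit that promotes end resection, had 6.4 and 13.1 TPM in Chd8-/- and 3.8 and 7.3 in WT, with overlap. Its log2 fold change of 0.69 (SE 0.53, adjusted p = 0.691) was 0.23 without Chd8-/- replicate 2. Bard1, the obligate partner of BRCA1, had 6.4 and 15.0 TPM in Chd8-/- and 7.0 and 5.9 in WT. Its log2 fold change of 0.55 (SE 0.50, adjusted p = 0.738) became -0.01 without that library. Of the 10 cell-cycle genes, 6 were also highest in that library and 1 was lowest there. The share of all genes highest in it was not computed, and a part played by cycling was not tested. Brca2, a breast cancer susceptibility gene, ranged from 2.0 to 2.9 TPM, and Palb2, which links BRCA1 to BRCA2, from 0.7 to 3.5. The annealing factor gene Rad52 lay between 2.5 and 5.4 TPM, and Rad54l, which encodes a DNA translocase, between 3.0 and 6.3. The genotypes overlapped in these 4 genes.

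In non-homologous end joining, the ligation partners had fold changes of opposite sign and the Ku subunits had log2 fold changes near 0. Xrcc4, the scaffold of the final ligase, had 29.5 and 28.5 TPM in Chd8-/- and 11.2 and 15.7 in WT. Its genotypes did not overlap. The log2 fold change was 1.07 (SE 0.30, interval 0.27 to 1.87). By limma p was 0.0199 unadjusted and 0.441 adjusted over all genes. The fold change lay between 0.84 and 1.30 with any library left out. Lig4, the ligase that XRCC4 holds, had 5.7 and 1.3 TPM in Chd8-/- and 6.3 and 6.0 in WT. Its Chd8-/- libraries were both lower, but the log2 fold change of -0.86 (SE 0.64, adjusted p = 0.684) was -0.09 without Chd8-/- replicate 2. Xrcc5, the larger Ku subunit, had 21.0 and 27.1 TPM in Chd8-/- and 23.2 and 22.4 in WT, with overlap. A log2 fold change of 0.06 was found with a 95% interval of -0.67 to 0.79 (adjusted p = 0.955). Xrcc6, the smaller Ku subunit, had 8.1 and 7.1 TPM in Chd8-/- and 7.0 and 6.7 in WT. Its libraries did not overlap, yet the log2 fold change was only 0.13 with a 95% interval of -0.78 to 1.03 (adjusted p = 0.914).

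The 6 base excision and single-strand break repair members had log2 fold changes from -0.40 for Xrcc1 to 0.36 for Ogg1. Of the 12 further genes of that pathway tested, 6 had a log2 fold change of at least 0.5 in either direction, against 41.3% of all genes tested. Among these 6, Ung and Tdp2 went to -0.05 and 0.17 without Chd8-/- replicate 2. Parp1, the main sensor of single-strand breaks, had 94.8 and 87.3 TPM in Chd8-/- and 81.5 and 109.1 in WT. The genotypes overlapped, and the log2 fold change was -0.05 with a 95% interval of -0.67 to 0.57 (adjusted p = 0.956). The scaffold gene Xrcc1 and its ligase partner Lig3 were both lower in the Chd8-/- libraries without overlap. Xrcc1 had 3.6 and 3.9 TPM in Chd8-/- and 4.8 and 5.8 in WT, a log2 fold change of -0.40 (SE 0.37, adjusted p = 0.739). For Lig3 the levels were 6.6 and 7.4 TPM against 8.8 and 7.7, a log2 fold change of -0.21 (SE 0.34, adjusted p = 0.852) that was 0.04 after quantile normalization. Parp2 ranged from 42.0 to 72.6 TPM, the 8-oxoguanine glycosylase gene Ogg1 from 1.0 to 3.7, and the adenine glycosylase gene Mutyh from 1.4 to 4.5, all with overlap.

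Neither mismatch repair gene separated the genotypes. Msh6, a subunit of the mismatch recognition dimer, had 120.2 and 64.2 TPM in Chd8-/- and 105.1 and 114.1 in WT. The log2 fold change of -0.31 (SE 0.35, adjusted p = 0.790) was 0.13 without Chd8-/- replicate 2. Pms2, part of the endonuclease that follows, ranged from 2.2 to 3.9 TPM. Of the Fanconi anemia genes, Fanci had 7.0 and 4.9 TPM in Chd8-/- and 7.6 and 11.1 in WT, lower in both Chd8-/- libraries, at a log2 fold change of -0.57 (SE 0.40, adjusted p = 0.668). It shares 12.5% of its exonic bases with Polg on the opposite strand. Fancd2, which is ubiquitinated together with FANCI, ranged from 1.3 to 2.4 TPM with overlap. Fanca, a core complex subunit, had 1.3 and 1.2 TPM in Chd8-/- and 0.7 and 0.8 in WT, at the level of the filter.

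Nucleotide excision repair genes differed in both directions. Ercc1, a subunit of the nuclease that cuts 5′ to the lesion, had 20.7 and 33.7 TPM in Chd8-/- and 15.0 and 10.5 in WT. Both Chd8-/- libraries were higher, with a log2 fold change of 1.02 (SE 0.38, adjusted p = 0.492) and of 0.68 without Chd8-/- replicate 2. Ercc4 encodes XPF, the catalytic partner of ERCC1, and had 14.3 and 8.9 TPM in Chd8-/- and 18.8 and 17.8 in WT. It was lower in both Chd8-/- libraries, with a log2 fold change of -0.65 (SE 0.35, adjusted p = 0.593) and of -0.33 without Chd8-/- replicate 2. Ercc2, a helicase of TFIIH, had 34.6 and 16.3 TPM in Chd8-/- and 12.1 and 14.2 in WT. Its log2 fold change of 0.81 (SE 0.45, adjusted p = 0.598) was 0.29 without Chd8-/- replicate 1. Ercc2 shares 23.9% of its exonic bases with Klc3 on the opposite strand, which had 2.8 and 0.3 TPM in Chd8-/- and 1.2 and 1.4 in WT. The other TFIIH helicase gene, Ercc3, ranged from 20.9 to 30.0 TPM and the damage verification gene Xpa from 28.0 to 63.0, both with overlap.

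**Figure D4:**
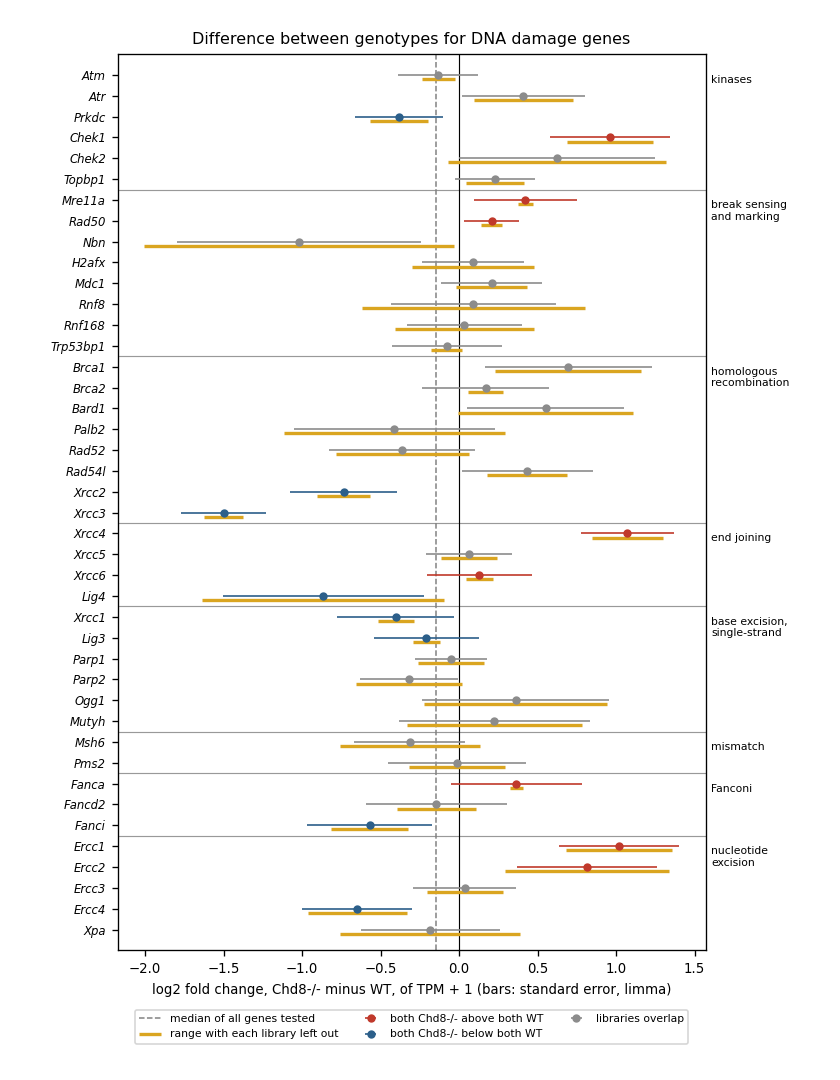
Log2 fold change (Chd8-/- minus WT) of each member with its standard error from limma, red where both Chd8-/- values exceeded both WT values, blue where both were below, and gray where they overlapped. Orange lines give the range with each library left out and the dashed line the median of all genes tested, -0.15. Xrcc3 at -1.50 and Xrcc4 at 1.07 lie farthest from 0 with short orange lines, while Nbn and Lig4 have long ones.

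Levels within each library were next compared between the members of 12 pairs whose products work together or in parallel. The pairs and this comparison were chosen after the values had been seen, and the differences are given without a test. In 2 pairs the ratio of the first gene to the second was higher in both Chd8-/- libraries, in another 2 it was lower in both, and in 8 the genotypes overlapped. No share over pairs of other genes was computed, so these counts cannot be read as a trait of these pairs. The ratio of Xrcc4 to Lig4 TPM was 5.18 and 21.9 in Chd8-/- libraries and 1.78 and 2.62 in WT libraries. On the log2(TPM + 1) scale the difference between the 2 genes was 1.94 larger in Chd8-/- Tregs. The Ercc1 to Ercc4 ratio was 1.45 and 3.79 in Chd8-/- and 0.798 and 0.590 in WT, so that Ercc1 was above Ercc4 only in the Chd8-/- libraries. That log2 difference was 1.67 larger in Chd8-/- Tregs. In both pairs the ratio was highest in Chd8-/- replicate 2, and the other Chd8-/- library was still above both WT libraries. The lower pairs were Rad50 to Mre11a, with log2 differences of 3.93 and 3.75 against 4.02 and 4.09, and Atm to Atr, with 0.94 and 1.09 against 1.77 and 1.35. Within the Ku dimer, Xrcc5 minus Xrcc6 was 1.27 and 1.79 in Chd8-/- and 1.6 in each WT library, the Chd8-/- libraries lying on either side of WT.

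**Figure D5:**
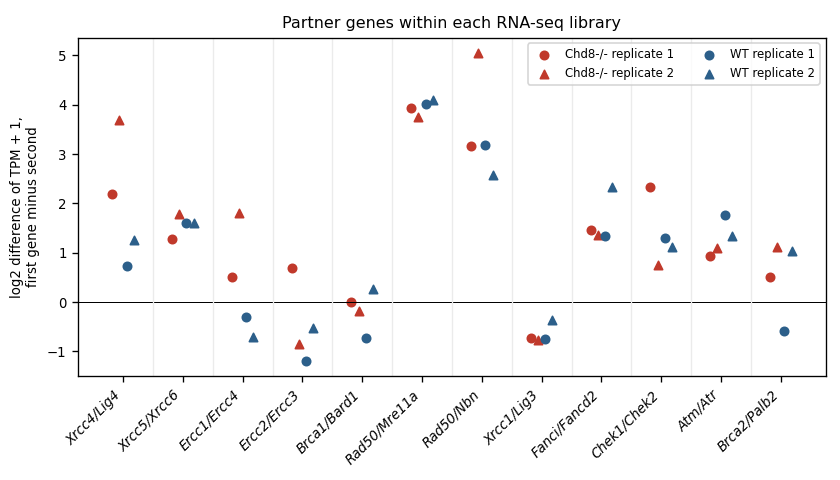
Log2 difference of TPM + 1 between the first and second gene of each pair in each library, Chd8-/- in red and WT in blue, replicate 1 as circles and replicate 2 as triangles. The Xrcc4/Lig4 and Ercc1/Ercc4 points of Chd8-/- lie above both WT points, and in 8 of the 12 pairs the genotypes overlap.

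The other genes of these pathways had a median close to that of all genes tested. Of 81 further DNA damage genes listed there, 79 passed the filter, 32 with a positive and 47 with a negative log2 fold change, and the median was -0.13. Without overlap 16 lay higher in Chd8-/- Tregs, or 20.25% against 14.8% of all genes tested, and 20 lay lower, or 25.32% against 27.8%. None passed an adjusted p of 0.05, 2 had an unadjusted p under 0.05, Polh and Apex1, or 2.53% against 10.2% of all genes tested, and the smallest adjusted p was 0.428. Polh, which encodes the translesion polymerase eta, had 35.0 and 34.3 TPM in Chd8-/- and 17.7 and 15.9 in WT, a log2 fold change of 1.00 (SE 0.25, adjusted p = 0.428). Mgmt, the enzyme that removes alkyl groups from guanine, had 11 and 3.3 TPM against 3.0 and 2.5, with a log2 fold change of 0.94 (SE 0.62) that rested largely on Chd8-/- replicate 1. Exo1, a nuclease of end resection, had 4.3 and 4.1 TPM against 2.7 and 1.3, a log2 fold change of 0.83 (SE 0.45). In the lower direction Eme1, a subunit of a junction-cutting nuclease, had 6.7 and 0.9 TPM against 8.4 and 7.4, with a log2 fold change of -1.22 (SE 0.77) that was -0.21 without Chd8-/- replicate 2. The uracil glycosylase gene Smug1 had 2.8 and 0.9 TPM against 4.0 and 4.8, with a log2 fold change of -1.0 (SE 0.52) that was -0.50 without Chd8-/- replicate 2. For the crosslink nuclease gene Fan1 the levels were 2.1 and 1.2 TPM against 4.1 and 4.0. That log2 fold change was -0.95 (SE 0.42), and -0.70 without Chd8-/- replicate 2.

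By pathway, 9 of the 10 further Fanconi anemia genes had negative log2 fold changes, 5 of them without overlap, with a median of -0.38. Over all genes tested 61.5% were negative, 27.8% lay lower without overlap and the median was -0.15. The 10 Fanconi anemia genes were low, with a median of their mean TPM of 3.98, and Fancb, Fancc and Fancg had means of 1.0 to 1.7. The direction of 3 of the 10 turned with a library left out. Without Chd8-/- replicate 2, Fancg went to 0.16, Ube2t to 1.70 and Fancf, the positive one, to -0.31. Further homologous recombination genes were split, with 8 positive and 6 negative. Of the 10 further nucleotide excision repair genes 5 were positive and 5 negative. Among them Ddb1, a subunit of the ultraviolet damage sensor, had 112.2 and 111.0 TPM in Chd8-/- and 81.6 and 78.1 in WT, and Ercc5, the nuclease that cuts 3′ to the lesion, had 13.5 and 10.6 against 6.9 and 6.6. In the other direction Ercc8, a factor of transcription-coupled repair, had 2.3 and 1.2 TPM against 4.0 and 3.6, and Ddb2, the partner of DDB1, had 38.0 and 33.0 against 40.3 and 41.8. Apex1, the main endonuclease at abasic sites, had 95.4 and 114.0 TPM in Chd8-/- and 61.1 and 56.4 in WT, a log2 fold change of 0.82 (SE 0.21, adjusted p = 0.430). Ddb1, Ercc5, Ercc8, Ddb2 and Apex1 were named after their values were seen.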

How the data were processed

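RNA-seq of sorted YFP+ splenic Tregs comprised 2 Chd8-/- and 2 WT libraries, grouped by their labels. Per the study's methods and processing notes, the authors trimmed reads (Trim Galore 0.4.2, cutadapt 1.9.1), aligned them to mm10 with STAR 2.6.1e, removed duplicate reads, counted RefSeq genes with featureCounts 1.6.2 and deposited TPM, rounded to 1 decimal. The methods name both a 10x Genomics 3′ assay and an Illumina RNA-seq kit, so that TPM compares levels between genes only if reads covered whole transcripts. Strand handling is not given in the sources used here, the depth behind the TPM values is unknown, and no counting interval can be given.

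Values were analysed as log2(TPM + 1), so that fold changes of low genes are understated. Genes with at least 1 TPM in at least 2 libraries were fitted with limma 3.58.1 (R 4.3.3, eBayes with trend), two-sided, with Benjamini-Hochberg adjustment over all genes tested, after a test on simulated data. The 4 entries under repeated names were left out. Nothing says whether libraries came from separate animals, and p-values measure only the spread between them. Exonic overlaps and promoters came from RefSeq GRCm38.p6. All members could be named, with every library's value for those with a log2 fold change of at least 0.5 either way and for Atm, Atr, Prkdc, Chek1, Brca1, Trp53bp1, H2afx, Parp1, Xrcc5 and Xrcc6, and for up to 3 further pathway genes per direction with the largest change and no overlap. Members and lists were chosen with earlier results of these data known. The ATAC-seq and CHIP-seq tables (peaks on mm39) were not used, as no annotation of that build was at hand. Alternatives were other pseudocounts, filters, eBayes without trend, each library left out, a replicate block and quantile normalization.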

Additional observations from a re-analysis of the deposited data

How the results depend on the processing

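No gene passed an adjusted p of 0.05 in any setting but one. A stricter filter (mean TPM no lower than 5) gave 2 genes, neither of them a member, and 12 members were lost to that filter. With each library left out in turn the number stayed at 0, and the genes at an unadjusted p under 0.05 numbered 560 to 3181. Quantile normalization gave 16 members higher and 5 lower without overlap, and a member median of 0.16. With each library left out, the median of the members lay between -0.0653 (without Chd8-/- replicate 1) and 0.0842, and the members without overlap numbered 14 to 17 higher and 10 to 16 lower, against 8 and 8 with all libraries, since 3 libraries overlap less readily than 4. Of all genes tested, 22.0% to 32.5% lay higher and 38.0% to 52.7% lower without overlap in the same way. The median of the other pathway genes lay between -0.17 and 0.05 with each library left out and was 0.04 after quantile normalization. With the replicate number as a block, 0 genes passed, 1336 had an unadjusted p under 0.05 and the smallest adjusted p was 0.552. The differences between replicates 1 and 2 correlated at -0.01 across genes between genotypes, so that libraries shared a number and were not treated as pairs.

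Chd8 and 22 members kept their direction in every setting. With each library left out, the log2 fold changes that crossed 0 were those of Chek2 (-0.0691 to 1.32), H2afx (-0.299 to 0.474), Mdc1 (-0.0205 to 0.433), Rnf8 (-0.617 to 0.799), Rnf168 (-0.41 to 0.475), Trp53bp1 (-0.177 to 0.0205) and Bard1 (-0.00577 to 1.11). So did those of Palb2 (-1.11 to 0.29), Rad52 (-0.787 to 0.0608), Xrcc5 (-0.113 to 0.24), Parp1 (-0.26 to 0.157), Parp2 (-0.657 to 0.0164) and Ogg1 (-0.222 to 0.94), and those of Mutyh (-0.333 to 0.783), Msh6 (-0.761 to 0.133), Pms2 (-0.32 to 0.295), Fancd2 (-0.397 to 0.106), Ercc3 (-0.205 to 0.277) and Xpa (-0.756 to 0.386). Leaving out Chd8-/- replicate 2 turned 12 of them, Chd8-/- replicate 1 turned 3, WT replicate 1 turned 4 and WT replicate 2 turned 6. Quantile normalization turned Trp53bp1 (0.162), Lig3 (0.0382), Pms2 (0.28) and Fancd2 (0.162), and a pseudocount of 5 TPM turned Pms2 (0.00135). Where a direction turned with a library left out, the cause was not tested. The alternatives planned for the ATAC-seq and CHIP-seq peaks were not run.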
